A study of Mus musculus with 4 samples.

Results

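The genes of voltage-gated and potassium channels were described in the dentate gyrus (DG) of mice given electroconvulsive stimulation (ECS), the rodent model of electroconvulsive therapy. Members were all probe sets of the array that are annotated to a single gene symbol and whose symbol begins with Kcn or Cacn, with Hcn and a number, or reads Scn, a number and the letter a or b. There were 139 such probe sets among 20380 probe sets with a single symbol, and they stood for 96 genes among 12393. By class, 62 genes (90 probe sets) belonged to potassium channels, 23 genes (34 probe sets) to voltage-gated calcium channels, 9 genes (13 probe sets) to voltage-gated sodium channels and 2 genes (2 probe sets) to the hyperpolarization-activated HCN channels. The rule reads names and no measured value, but it was chosen with earlier results of these data known.

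The study asked how ECS alters the granule cells (GCs) of the adult DG, the neurons that relay entorhinal input to the CA3 field. Gene expression was measured on 4 arrays, 1 for each of 4 groups of C57Bl/6 mice, which the study's methods describe as male and 8 weeks old at purchase. One group had a sham session and another a single ECS, both dissected at 1 h. Of the repeated groups, one had 10 ECS and was dissected 48 h later, and the other had 11 ECS and was dissected 1 h later. Each ECS passed 25 mA bilaterally for 1 s through ear clips, at 100 pulses per s of 0.5 ms, under isoflurane, and repeated groups had 4 sessions a week for up to 3 weeks. For sham no current was passed. Earlier ECS in the repeated groups came with more sessions of isoflurane and handling over weeks, and these cannot be told apart. The study describes the 48 h mice as having received sham handling 1 h before they were dissected. Each array held pooled RNA from 3 mice, so no group has a replicate, the spread between mice cannot be seen, and no test, p-value or SD between samples is given. Titles, sources and treatment fields match each other and gave the groups, but for 3 of 4 samples the description field states a treatment that differs from them.

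Ion channels set how a neuron turns synaptic input into spikes. Sodium channels carry the upstroke of the action potential, potassium channels set the resting potential, end the spike and limit repetitive firing, calcium channels couple depolarization to transmitter release and to gene expression, and HCN channels pass a depolarizing current at rest. Pore-forming subunits work with auxiliary subunits that alter their gating and surface level, and several of these carry channel symbols although they pass no current themselves, such as the calcium-binding KChIP proteins (Kcnip) and the AMPA receptor regulators among the Cacng genes. GCs are known for a negative resting potential and sparse firing.

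An ECS induces activity-dependent transcription factors, so the promoters of the members were searched for the letters that the AP-1 (TGANTCA), EGR (GCGNGGGCG) and CRE-binding (TGACGTCA) factor families are known to recognise. RefSeq promoters on GRCm38.p6 were listed for 76 of the 96 genes. The 250 bases before the most upstream listed start were read on both strands, in these genes and in all 27025 genes of the table. AP-1 letters were found for 4 members (5.26%; 6.85% of all genes), EGR letters for 6 (7.89%; 4.63% of all genes) and CRE letters for 0 (1.6% of all genes). The AP-1 and CRE letters cannot lie in the same bases, while the EGR letters may overlap GC-rich boxes of other factors. The members with AP-1 letters were Cacng5, Kcne3, Kcnip3 and Kcnip4, and those with EGR letters were Cacna1b, Cacna2d1, Cacna2d2, Hcn2, Scn7a and Scn8a. Stretches of 60 bases are shown for 6 of them whose signals are described further on, 5′ to 3′ on the strand of the gene, with the matched letters in capitals. Matches on the other strand read as the complement, as in Cacna2d1 and Hcn2. A match is a description of the letters and not a binding site.
Cacng5: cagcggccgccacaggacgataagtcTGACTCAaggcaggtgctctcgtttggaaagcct
Kcnip3: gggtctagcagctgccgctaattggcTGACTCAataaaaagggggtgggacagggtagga
Kcnip4: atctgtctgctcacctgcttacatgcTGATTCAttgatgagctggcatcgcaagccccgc
Cacna2d1: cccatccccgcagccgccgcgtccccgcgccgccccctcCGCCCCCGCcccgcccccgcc
Hcn2: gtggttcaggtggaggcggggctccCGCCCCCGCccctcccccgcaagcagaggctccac
Scn8a: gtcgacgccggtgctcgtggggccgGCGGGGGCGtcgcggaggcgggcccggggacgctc
The stretches lie at chr11:107915236-107915295 (minus strand) for Cacng5, chr2:127522183-127522242 (minus strand) for Kcnip3, chr5:49285708-49285767 (minus strand) for Kcnip4, chr5:15934631-15934690 (plus strand) for Cacna2d1, chr10:79716530-79716589 (plus strand) for Hcn2 and chr15:100870545-100870604 (plus strand) for Scn8a. All lie upstream of the gene start used. The bases between the letters in capitals and that start number 207 for Cacng5, 115 for Kcnip3, 75 for Kcnip4, 12 for Cacna2d1, 70 for Hcn2 and 66 for Scn8a. The Cacna2d1 stretch holds a second EGR match nearer to the start.

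Signals are the deposited MAS5 values on a linear scale, and the 4 signals of a gene are given in the order sham, single ECS, 10 ECS and 11 ECS. Where a gene has several probe sets, the one brightest on average stands for it, and signals under 12 units, the 25th percentile of all signals, are treated as at the floor. The median signals of the arrays were 69.3, 56.3, 62.4 and 56.7 units. The median log2 ratio over all genes was therefore not 0: it was -0.24 for single ECS against sham, -0.11 for 11 ECS against 10 ECS, -0.14 for 10 ECS against sham and 0.00 for 11 ECS against single ECS. A ratio minus this median is called a relative log2 ratio. The first pair of these comparisons gives the response to the first and to the 11th ECS, and its comparisons share no array. The same holds for the last pair, which sets the repeated groups against the groups without earlier ECS. The error at hand is how far probe sets of 1 gene lie from each other, with a pooled SD of 0.29, 0.27, 0.29 and 0.28 on the log2 scale over all genes and 0.34, 0.32, 0.38 and 0.35 over the members. It covers neither arrays nor mice. Fos, an activity marker, read 139, 1833, 82.8 and 937 units, high on both arrays labelled 1 h after ECS. Markers of the other cell types of the hippocampus were present on all arrays, and for each list the lowest and highest summed signals differed by less than the granule cell list's, except for the choroid plexus list (160.1 to 299.5 units, Aqp1 and Otx2 at the floor). Sums do not show that single markers were steady. On the meninges list Ogn read 241, 176, 33.4 and 21.5 units and Col1a2 59.0, 60.6, 151 and 141 units. On the astrocyte list Gfap read 49.3, 45.6, 114 and 135 units. The 8 granule cell markers read summed signals of 11514, 9536, 7807 and 7037 units.

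Most channel genes were measurable, but fewer than among all genes. Of the 96 genes, 61 (63.5%) were above the floor on all 4 arrays, compared with 72.6% of all genes, 16 on some arrays and 19 on none. Detection differed by class. Sodium channels had 4 of 9 genes above the floor on all arrays, potassium channels 38 of 62, calcium channels 17 of 23 and HCN channels both. The genes at the floor on all arrays included channels best known outside the brain, such as Scn10a of sensory neurons, Cacna1s and Cacng1 of skeletal muscle, Kcnj1 of the kidney and Kcne1 and Kcnq1 of the heart. They also held genes of neuronal channels, namely the sodium channel Scn3a, the A-type potassium channel genes Kcnd1 and Kcnd3, the inward rectifier Kcnj2 and the small-conductance channel Kcnn3. A signal at the floor says only that the probe set gave no usable signal here. Cacna1b and Cacna1e, the pore genes of N- and R-type calcium channels, stayed at or near the floor (3.8 to 18.3 and 9.7 to 15.9 units).

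Few channel genes were at least 2-fold apart in any of the 4 comparisons, and the same was true of all genes. After a single ECS, 0 of 74 channel genes with a value were at least 2-fold higher (1.2% of all genes) and 2 were at least 2-fold lower (2.89% of all genes). After the 11th ECS, 1 of 73 was at least 2-fold higher (1.06% of all genes) and 0 were lower (1.21%). In 10 ECS against sham, 0 of 74 were higher (0.716%) and 3 were lower (1.22%). In 11 ECS against single ECS, 0 of 72 were higher (0.832%) and 0 lower (0.782%). The genes past 2-fold were dim: Kcna7 and Kcnab3 after a single ECS, Kcne4 after the 11th ECS, and Kcna7, Kcne4 and Kcnj8 in 10 ECS against sham, none of them over 51.2 units on any array.

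A limit of 1.5-fold gave more genes. On the deposited scale, 11 channel genes (14.9%) were at least 1.5-fold lower after a single ECS, close to the 15.4% of all genes, and 1 was higher (3.08% of all genes). After the 11th ECS, 9 (12.3%) were lower and 5 (6.85%) higher, beside 6.92% and 3.48% of all genes. In 10 ECS against sham, 10 (13.5%) were lower and 3 (4.05%) higher, beside 7.2% and 2.98%. With arrays scaled to an equal median, 7 (9.72%) were lower and 4 (5.56%) higher in this comparison, beside 3.9% and 4.44%. In 11 ECS against single ECS, 4 (5.56%) were lower and 5 (6.94%) higher, beside 4.31% and 4.39%. The split of higher and lower calls turned with the scaling for both responses. Median scaling gave 7 higher (6.6% of all genes) and 4 lower (4.87%) after a single ECS, and 6 higher (5.36%) and 5 lower (4.17%) after the 11th.

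The medians of the classes lay near that of all genes. For all channel genes the relative median was 0.05 after a single ECS, -0.03 after the 11th ECS, -0.09 in 10 ECS against sham and -0.08 in 11 ECS against single ECS. Potassium channel genes had 0.06, 0.03, -0.07 and -0.01 in the same order. Calcium channel genes had 0.04 and -0.14 in the responses to the first and the 11th ECS, and 17 of 21 lay below the median of all genes after the 11th. In 11 ECS against single ECS the calcium median was -0.25 and 14 of 20 genes lay below that of all genes. In 10 ECS against sham it was 0.09 on the deposited scale and -0.13 with median scaling, so its direction was not settled. Sodium channel genes had -0.07, -0.04, -0.18 and -0.18. In each of the last 3 comparisons, the 4 genes above the floor on both arrays lay below the median of all genes. The other gene with a value was Scn11a in 10 ECS against sham and Scn7a in 11 ECS against single ECS. Each was a bound that could only be below 0, so its direction says nothing.

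**Figure D1:**
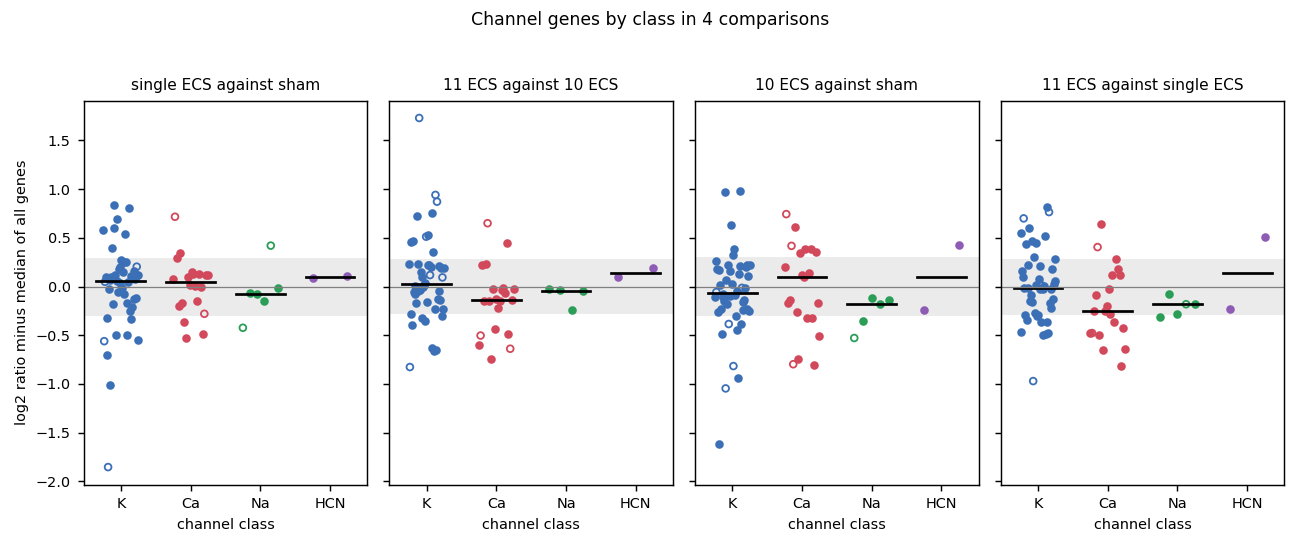
Relative log2 ratio (log2 ratio minus the median of all genes) of each channel gene with a value, by class and comparison. Filled points are genes above the floor on both arrays, open points are bounds, black bars are class medians and the grey band is plus or minus the pooled probe-set SD of single genes in that comparison. The calcium channel median is lowest in 11 ECS against single ECS, at -0.25.

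Among potassium channels, the Kv1 genes encode low-threshold channels of axons and terminals. Kcna1 read 1434, 1822, 1209.7 and 1317 units, highest after a single ECS. It was 1.27-fold higher than in sham after the first ECS (relative log2 ratio 0.59) and 1.09-fold higher after the 11th (relative 0.23), and the 11 ECS array was 1.38-fold below the single ECS array. Kcna4, which encodes an inactivating axonal channel, read 74.1, 67.1, 76.7 and 98.0 units and was highest on the 11 ECS array, 1.28-fold above 10 ECS and 1.46-fold above single ECS. The other Kv1 genes were dim, at 30.3 units or less except Kcna7. Kcna7 read 51.2 units in sham, 3.8 after a single ECS, 15.2 after 10 ECS and 19.5 after 11 ECS, so sham was at least 4.27-fold above single ECS. It is read by 1 probe set, and it lay over 19.5 units on the sham array only.

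Of the Kv3 genes, which encode fast channels that allow rapid firing, Kcnc4 stood apart in both responses. Its signals were 284, 315, 239.9 and 368 units, so that each array at 1 h after ECS was above its partner. The ratio was 1.11-fold after the first and 1.53-fold after the 11th ECS, with relative log2 ratios of 0.39 and 0.72. Its second probe set read 42.5, 46.8, 12.4 and 50.7 units, lowest on the 10 ECS array as well, where it was close to the floor. Kcnc1 read 222, 202, 192 and 159 units, with relative log2 ratios of 0.10 and -0.17 in the responses.

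The A-type channel of GC dendrites is formed by Kcnd2 with KChIP proteins. Kcnd2 was read by 3 probe sets with similar order on the arrays. The brightest read 1914, 1430.3, 1575 and 1419 units, another 938, 736, 604 and 494, and the remaining one 984, 749, 689 and 645. Sham was highest and 11 ECS lowest on all of them. The probe sets differed in size, however: the relative log2 ratio of 10 ECS against sham was -0.15, -0.50 and -0.38, and that of 11 ECS against single ECS was -0.01, -0.58 and -0.22.

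Auxiliary subunits of potassium channels showed a single gene above 48 units (4 times the floor) that was higher in both repeated groups beyond the probe-set SD. Kcnip3, which encodes the KChIP3 protein, also known as a calcium-dependent transcriptional repressor, read 50.1, 48.6, 70.9 and 66.4 units. It was 1.42-fold higher in 10 ECS than in sham and 1.37-fold higher in 11 ECS than in single ECS. Its second probe set read 66.3 units on the 10 ECS array and was under the floor on the other 3 arrays (10.2, 6.2 and 11.7), so the probe sets differ for 11 ECS. Of the other KChIP genes, Kcnip4 read 435, 379, 403 and 385 units, Kcnip2 103, 98.3, 87.6 and 81.4, and Kcnip1 68.3, 55.6, 69.3 and 68.7. With these brightest probe sets, each stayed within 1.24-fold in every comparison. A dimmer Kcnip1 probe set read 45.8, 39.2, 39.1 and 28.3 units. It was lower on the 11 ECS array, 1.38-fold below 10 ECS and 1.39-fold below single ECS. A dimmer Kcnip2 probe set was under the floor on both arrays at 1 h after ECS. The β subunit genes Kcnab1 (1110.3, 927, 1025 and 917 units) and Kcnab2 (1428, 1265, 1109.5 and 1031 units) were likewise within 1.29-fold. The dimmer Kcnab1 probe set read 94.8, 76.4, 88.1 and 58.8 units, 1.50-fold lower after the 11th ECS. Kcnab3 read 41.3 units in sham and 17.4 to 26.8 on the other arrays, 2.37-fold lower after a single ECS. Kcne1l read 19.9 and 25.5 units without earlier ECS and 35.6 and 38.8 units with it, and Kcne4 read 27.2, 41.1, 9.7 and 37.0 units, at the floor on the 10 ECS array only.

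Kcnh2, which encodes the slowly deactivating ERG channel, showed the largest positive difference between the responses among channel genes above the floor on all arrays that reached 48 units. It read 79.5, 47.6, 64.0 and 66.0 units, lowest after a single ECS. It was 1.67-fold lower than sham after the first ECS and 1.03-fold higher than 10 ECS after the 11th, a difference of responses of 0.78 on the log2 scale. The median difference over all genes was 0.13, and the middle 90% of genes lay between -0.45 and 0.71. Kcnh1 stayed between 180.0 and 208 units. Kcns2, which encodes a silent subunit that modifies other Kv channels, read 112, 65.1, 86.0 and 67.9 units and was lower on both arrays at 1 h after ECS, 1.72-fold and 1.27-fold. Kcnq5, which encodes a channel of the M current, read 189.6, 148, 201 and 151 units and was also lower on both, 1.28-fold and 1.33-fold. All of them were read by 1 probe set.

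Inward rectifiers hold the resting potential, and Kcnj3, Kcnj6 and Kcnj9 encode the GIRK channels that G proteins open. Kcnj9 read 129.8, 77.6, 129.3 and 77.8 units. Both arrays at 1 h after ECS were nearly equal and lay 1.67-fold and 1.66-fold below their partners, while the groups with and without earlier ECS were 1.00-fold apart in both comparisons. Its second probe set was near the floor (13.8 to 19.2 units) and read 1.23-fold higher after the first and 1.15-fold lower after the 11th ECS. Kcnj3 read 95.8, 96.4, 70.6 and 94.9 units, low on the 10 ECS array alone, 1.36-fold below sham. Kcnj6 was read by 5 dim probe sets (up to 43.7 units) whose log2 ratios of 10 ECS against sham ran from -0.99 to 0.67, so its direction could not be settled.

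The remaining inward rectifiers had no shared direction. Kcnj4, a classical strong rectifier, read 177, 219, 156 and 169.5 units, with relative log2 ratios of 0.54 and 0.23 in the responses. Kcnj10, the main rectifier of astrocytes, read 356, 364, 407 and 296 units, 1.38-fold lower after the 11th ECS, and its difference of responses was -0.49. The summed signals of 5 astrocyte markers were 6323, 5699, 5969 and 5920 units. The markers did not share an order: Gja1 read 3059, 2734, 2854 and 2721 units, Slc1a3 1841, 1603, 1354 and 1368 units, and Gfap 49.3, 45.6, 114 and 135 units. The part of astrocyte content in the Kcnj10 values was not tested. Kcnj8, known from pericytes, read 45.4, 34.2, 21.5 and 33.7 units, and the 5 mural cell markers summed to 1697, 1530.5, 1571 and 1683 units. In RNA of a whole dissected region, fewer cells of a type and less RNA per cell cannot be told apart.

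Among the leak channels with 2 pore domains, Kcnk1 and Kcnk2 differed in direction over the course. Kcnk1 (TWIK-1) read 1235, 1082, 1305 and 1553 units, highest on the 11 ECS array, 1.44-fold above single ECS. Its second probe set read 279, 292, 354 and 400.4 units in the same direction. Kcnk2 (TREK-1) read 295, 209, 206 and 163 units, highest in sham and lowest after 11 ECS, with relative log2 ratios of -0.38 for 10 ECS against sham and -0.36 for 11 ECS against single ECS. Kcnk4 (TRAAK) was dim (38.5, 25.8, 31.4 and 18.6 units) and lower on both arrays at 1 h after ECS. The calcium-activated channel genes had no common order. Kcnma1, the pore of the large-conductance channel, read 410.2, 299, 315 and 267 units, and its other probe set 449, 310.1, 254 and 214 units, with relative log2 ratios of 10 ECS against sham of -0.24 and -0.68. Its neuronal partner Kcnmb4 read 628, 592, 568 and 509 units, and the small-conductance channel gene Kcnn2 377, 338, 292 and 309.7 units, each lowest on a repeated-ECS array. Kcnn1, of the same family as Kcnn2, read 55.0, 42.6, 57.5 and 48.4 units, and its second probe set 43.0, 16.8, 44.1 and 36.5 units, both lowest after a single ECS.

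Among calcium channels, both T-type pore genes with a usable signal differed in direction over the course but not in the responses. Cacna1h, the pore of a T-type channel that opens at low voltage, read 650.2, 429, 493 and 273 units. It was 1.52-fold lower after the first and 1.81-fold lower after the 11th ECS, with relative log2 ratios of -0.36 and -0.75, and the repeated groups lay 1.32-fold and 1.57-fold below those without earlier ECS. The dimmer probe set read 66.9, 47.4, 44.7 and 41.7 units, lowest on the same array, but differed by only 1.07-fold between 10 and 11 ECS. Cacna1g, another T-type pore, differed from it over the course: its signals were 72.0, 54.1, 100.4 and 84.2 units. It was 1.39-fold higher in 10 ECS than in sham and 1.56-fold higher in 11 ECS than in single ECS. In the responses it was lower, as Cacna1h was, 1.33-fold and 1.19-fold, with relative log2 ratios of -0.17 and -0.15. It was read by 1 probe set.

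High-voltage-activated pores were less uniform. Cacna1a, the P/Q-type pore of transmitter release, read 246, 219, 256 and 157 units and was low on the 11 ECS array alone, 1.63-fold below 10 ECS. Its difference of responses, -0.54, was the lowest among channel genes above the floor on all arrays that reached 48 units, beside a 5th percentile of -0.45 over all genes. Its dimmer probe set read 58.8, 63.5, 65.6 and 54.2 units, also lowest on the 11 ECS array, 1.21-fold below 10 ECS. The L-type pores Cacna1c (129, 134, 104 and 113 units) and Cacna1d (303, 223, 251 and 211 units) stayed within 1.36-fold between the groups compared, with their brightest probe sets. A dimmer Cacna1d probe set read 33.6, 30.3, 24.1 and 43.7 units and was highest on the array on which the brighter one was lowest.

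The α2δ subunits bring calcium channels to the membrane. Cacna2d1 read 157 units in sham and 92.5, 85.3 and 77.8 on the 3 arrays after ECS, 1.70-fold lower after a single ECS and 1.84-fold lower after 10 ECS than in sham. Between 10 and 11 ECS it differed by 1.10-fold. Its dimmer probe set, at 27.4, 12.7, 21.2 and 17.0 units, was also highest in sham. Cacna2d2 read 105, 95.8, 122 and 83.5 units, 1.46-fold lower after the 11th ECS, and Cacna2d3 596, 510.0, 589 and 499.7 units, 1.17-fold and 1.18-fold lower in the responses, close to the median of all genes.

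The β subunit gene Cacnb4 was lower in both repeated groups with both of its probe sets. The brighter read 977, 832, 710.1 and 646 units and the other 406, 328, 252 and 232 units, each lower in the order sham, single ECS, 10 ECS and 11 ECS. The relative log2 ratios of the brighter were -0.33 for 10 ECS against sham and -0.37 for 11 ECS against single ECS, and those of the responses were 0.01 and -0.03. Cacnb2 (68.6, 63.3, 81.9 and 68.7 units) was highest on the 10 ECS array, and Cacnb1 (38.8 to 50 units) was lowest on the 11 ECS array. Another Cacnb1 probe set of similar brightness read 45.4, 21.6, 50.1 and 40.4 units, lowest after a single ECS. It was 2.10-fold lower than in sham there and 1.87-fold higher in 11 ECS than in single ECS, so the probe sets differ.

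Among the Cacng genes, most of which encode transmembrane AMPA receptor regulatory proteins, Cacng5 was apart from all genes in all 4 comparisons. It read 131, 79.3, 68.0 and 45.1 units, lower by 1.65-fold after the first ECS and by 1.51-fold after the 11th, and 1.92-fold and 1.76-fold between the groups without and with earlier ECS. The relative log2 ratios were -0.48, -0.49, -0.81 and -0.81. Its second probe set was at or under 13.0 units on all arrays and gave no usable ratio. Cacng8 (TARP γ-8), abundant in the hippocampus, read 103, 94.8, 66.3 and 60.7 units. It differed mainly between the groups with and without earlier ECS, 1.56-fold in each comparison. Cacng2 (stargazin) read 362, 276, 365 and 336 units and Cacng4 read 106, 89.5, 76.7 and 97.5 units, without such an order.

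**Figure D2:**
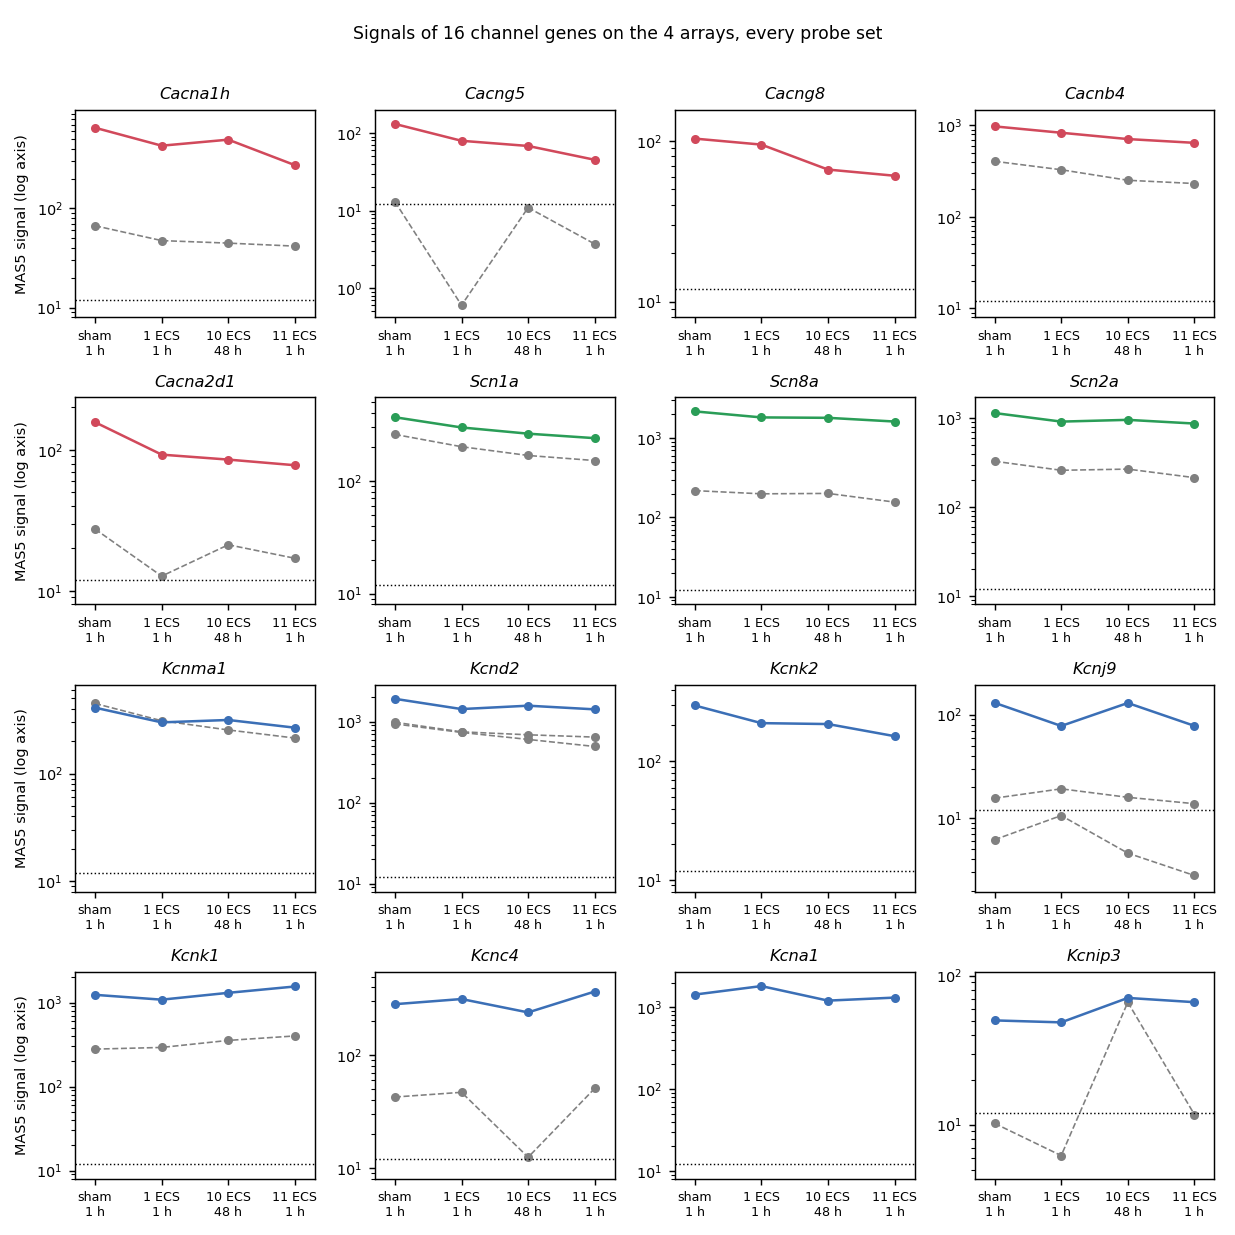
MAS5 signals (log axis) of 16 channel genes on the 4 arrays, 1 per group. The coloured line is the probe set that stands for the gene (red calcium, green sodium, blue potassium), dashed grey lines are its other probe sets, and the dotted line is the floor of 12 units. Both probe sets of Cacnb4 and of Scn1a are lower from array to array between sham and 11 ECS, Kcnj9 is low on both arrays at 1 h after ECS, and the second probe set of Kcnip3 is high on the 10 ECS array alone.

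Sodium channel genes with a usable signal were Scn1a, Scn2a and Scn8a, the pores of central neurons, and the auxiliary subunit Scn3b. With their brightest probe sets, all 4 were highest in sham and lowest after 11 ECS on the deposited scale. Among all genes above the floor on all arrays, sham was highest for 60.5% and 11 ECS lowest for 34.7%. After median scaling these shares were 21.8% and 20.1%, so the order follows the differing array medians in part. Scn1a, known for its role in fast-spiking interneurons, read 369, 299, 263 and 240.2 units, and its second probe set 259, 202, 168 and 152 units. Its relative log2 ratio was -0.35 for 10 ECS against sham and -0.32 for 11 ECS against single ECS with the brighter probe set, and -0.49 and -0.41 with the other. The summed signals of 6 interneuron markers were 4840, 4493, 4312 and 4414 units, most of it from Gad1 (3376, 3081, 2940 and 3052 units). The markers did not share an order. Pvalb read 149, 131, 107 and 99.2 units, with relative log2 ratios of -0.34 and -0.40 in the same comparisons. Vip had 0.36 and 0.23, and Lhx6 0.50 and -0.20. The part of interneuron content in the Scn1a values was not tested.

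Scn8a, the pore at the axon initial segment, read 2179, 1829, 1807 and 1622 units, and Scn2a 1150.0, 921, 964 and 875 units. Their relative log2 ratios ran from -0.17 to -0.01 for Scn8a and from -0.12 to -0.03 for Scn2a. The second Scn8a probe set read 218, 199, 201 and 156 units and had -0.35 for 11 ECS against single ECS. Scn3b read 2247, 1718, 1802 and 1416 units and its relative log2 ratios ran from -0.28 to -0.15, but its dim second probe set read 47.1, 37.5, 43.3 and 43.5 units, lowest after a single ECS. Of the other sodium channel genes, Scn11a read 19.0 units in sham and under the floor elsewhere, and Scn7a 13.6 units after a single ECS and under the floor elsewhere.

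Both HCN genes analysed differed from each other. Hcn2 read 119, 107, 92.1 and 91.3 units, 1.30-fold lower in 10 ECS than in sham and 1.18-fold lower in 11 ECS than in single ECS. Hcn3 was dim, at 27.7, 25.3, 34.0 and 36.0 units, and higher in the same comparisons, 1.23-fold and 1.42-fold. In the responses both lay within 1.11-fold.

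**Figure D3:**
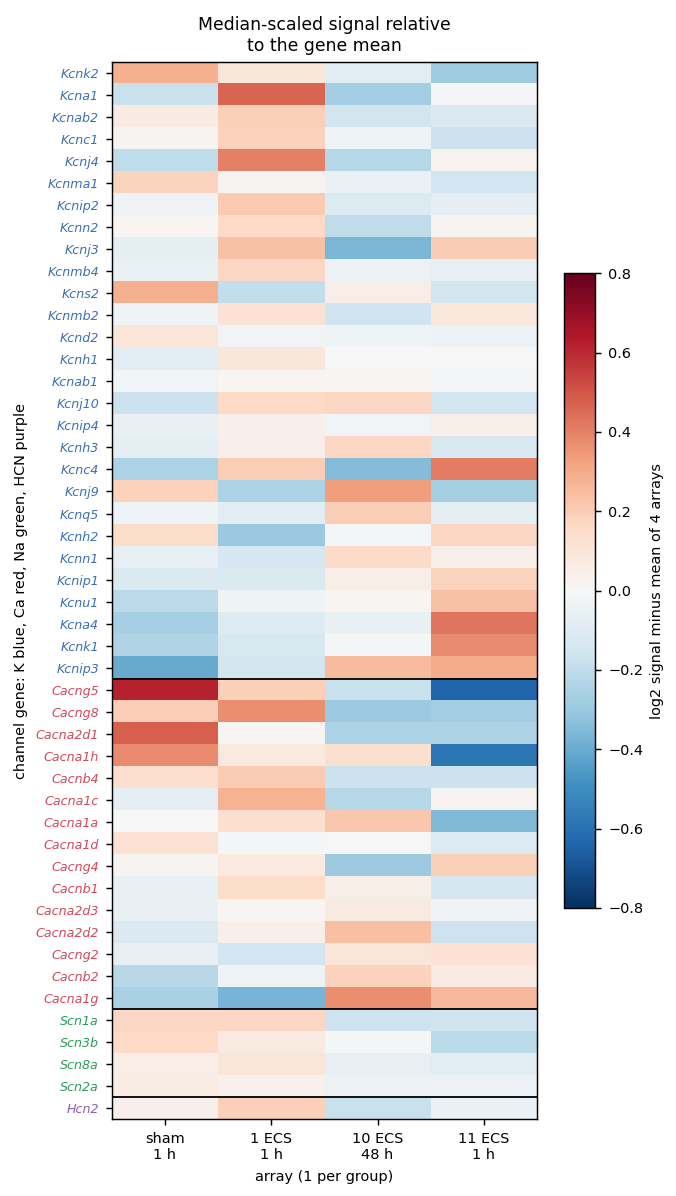
Log2 signal of 48 channel genes, minus the gene's mean over the 4 arrays. All arrays were scaled to an equal median, and the genes shown are those never at the floor that reach 48 units somewhere. Rows are genes by class and columns are the arrays, red is above and blue below the gene's mean. Cacng5 is darkest red in sham and, with Cacna1h, darkest blue at 11 ECS, while Kcna4, Kcnk1 and Kcnip3 run the other way.

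Genes were then counted that lay apart from the median of all genes, in the same direction and by more than the pooled probe-set SD, in both comparisons of a pair without shared arrays. Among 61 channel genes and 8999 genes above the floor on all arrays, this rule was chosen after values had been seen, and it is a description. In both responses, 1 channel gene was higher (1.64%; 6.29% of all genes), Kcnc4, and 6 were lower (9.84%; 6.39% of all genes), namely Cacna1h, Cacng5, Kcna5, Kcna6, Kcnj9 and Kcnk4. In both comparisons over the course, 4 were higher (6.56%; 4.11% of all genes), Cacna1g, Hcn3, Kcne1l and Kcnip3, and 6 were lower (9.84%; 4.48% of all genes), Cacnb4, Cacng5, Cacng8, Kcnj6, Kcnk2 and Scn1a. The Kcnj6 call rests on the brightest of 5 dim probe sets that differed in direction. It was not made with the median over probe sets. Among genes with at least 48 units the lower calls over the course were 5 of 48 (10.4%; 4.45% of all genes) and those in both responses 3 of 48 (6.25%; 6.11% of all genes). Cacng5 alone was lower in both pairs here, and the pairs use the same 4 arrays. With the median over probe sets it was Cacna1h instead, and with a floor of 50, which Cacng5 does not reach on the 11 ECS array, Cacna1h and Kcnk2. Of the 8 granule cell markers, Calb1 (3234, 2747, 1507 and 1304 units), Tdo2, Dsp and Il1r1 were lower over the course by more than the probe-set SD in both comparisons, with relative log2 ratios of -1.20 to -0.41. The other 4, Prox1, C1ql3, Lct and Neurod1, had -0.17 to -0.06. The part of these differences in the channel values was not tested.

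**Figure D4:**
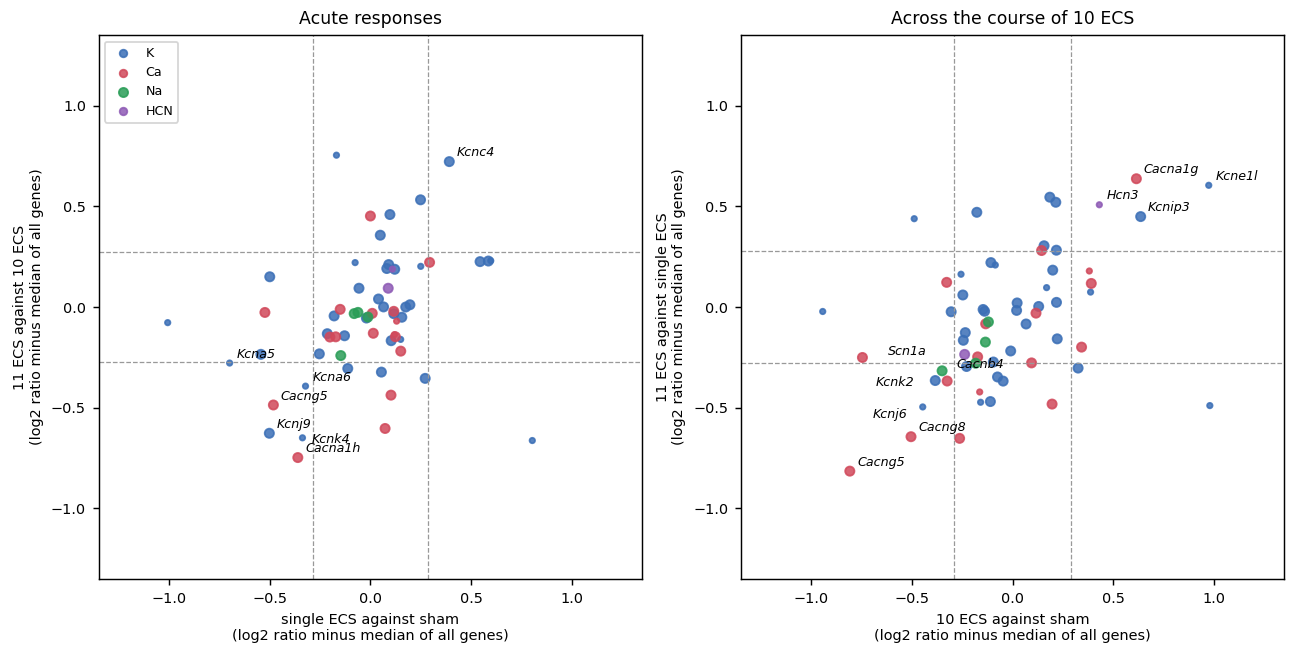
Relative log2 ratios of the 61 channel genes above the floor on all arrays, single ECS against sham on the x axis and 11 ECS against 10 ECS on the y axis (left), and 10 ECS against sham against 11 ECS against single ECS (right). Large points are genes with at least 48 units on 1 array, small points are dimmer, colours are classes, and dashed lines are plus or minus the pooled probe-set SD. Named genes lie beyond the lines on both axes, 7 on the left and 10 on the right.

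The order of the arrays was examined for each gene above the floor on all 4. Sham was the highest array for 35 of 61 channel genes (57.4%), compared with 60.5% of all genes, and for 15 (24.6%; 21.8% of all genes) after median scaling. The 11 ECS array was the lowest for 28 (45.9%), compared with 34.7% of all genes, and for 18 (29.5%; 20.1% of all genes) after median scaling. Of 24 genes of proteins that bind or regulate channels, 16 were on the array, and 0 of them were at least 2-fold apart in any comparison. Their relative medians were 0.03, -0.07, 0.02 and -0.00. At a limit of 1.5-fold, 1, 0, 1 and 2 of them were lower and 0 higher, among them Amigo1 at 80.8, 44.3, 66.6 and 47.6 units. Ank3, the scaffold of sodium channels at the axon initial segment, read 3042, 2647, 3032 and 2932 units, and Fgf13, which binds sodium channels, 3842, 3540.3, 3715 and 3655 units.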

How the data were processed

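RNA of the DG, pooled from 3 mice per group, was measured on 4 Affymetrix Mouse Genome 430A 2.0 arrays, 1 per group. The authors started from 100 ng of RNA, used an amplification kit that primes at the 3' end, and computed MAS5 signals (no version in the submitters' notes). Deposited are linear MAS5 intensity values for each probe set on each array. How the arrays were scaled was not given in the sources used here. Groups came from the sample titles.

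The 22626 probe sets besides 64 controls had a single symbol in 20380 cases, several in 691 and none in 1555, by the platform's annotation, which can be old. Signals were set to a floor of 12 units (25th percentile, taken since the sham median of 69.3 was under 100), log2 ratios were formed, and genes at the floor on both arrays had no value. With 1 such array the ratio is a bound. A 2-fold limit is a size, not a test. With 1 array per group, the number of arrays limits the precision. MAS5 weights probes within each set, and its dim signals scatter most. Genes were named if among the 8 highest or 8 lowest ratios of a comparison (at least 48 units on the brighter array), up to 4 bounds each way, the 5 largest differences of responses each way (11 ECS over 10 ECS minus single ECS over sham), or on a list fixed by name; other genes named, mostly dim ones, were chosen after their values were seen. The members and lists were chosen with earlier results of these data known. Alternatives were other scalings, floors, probe-set rules and limits. Counts and ratios were tested on simulated data. Changes were planted only in genes over 48 units, with less scatter than between the real probe sets. That test therefore does not cover changes in dim genes. Python 3.11.15, numpy 2.4.6, pandas 2.3.3 and matplotlib 3.10.9 were used.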

Additional observations from a re-analysis of the deposited data

How the results depend on the processing

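No paired analysis was possible because each group had 1 array, and for the same reason no replicate could be left out. Channel genes at least 2-fold apart changed in number with the floor and the limit, and the cause was not tested. The share of all genes called at the same setting is given in brackets. After a single ECS, the 0 higher genes became 4 with no floor (5.16%) and 1 at a limit of 1.5-fold (3.08%). The 2 lower genes became 1 with median scaling (0.882%), quantile normalization (0.99%) or only genes of at least 4 times the floor (2.09%). They became 0 with a floor of 50 (1.06%), also with median scaling (0.16%). With no floor they were 9 (9.07%), over every probe set 5 (3.04%) and at 1.5-fold 11 (15.4%). After the 11th ECS, the 1 higher gene became 0 with a floor of 50 (0.787%), also with median scaling (0.985%), and with at least 4 times the floor (0.965%). It became 6 with no floor (5.15%), 2 with the median over probe sets (0.935%) or every probe set (1.09%) and 5 at 1.5-fold (3.48%). The 0 lower became 8 with no floor (7.1%) and 9 at 1.5-fold (6.92%). They became 1 with the median over probe sets (1.04%) or every probe set (1.36%). In 10 ECS against sham, the 0 higher became 4 with no floor (5.34%) and 3 at 1.5-fold (2.98%). They became 1 with the median over probe sets (0.666%) or every probe set (0.716%). The 3 lower became 1 with median scaling (0.724%) or at least 4 times the floor (0.636%). They became 2 with quantile normalization (0.763%) or trimmed mean scaling (0.788%), and 0 with a floor of 50 (0.367%), also with median scaling (0.16%). With the median over probe sets (1.12%) or every probe set (1.63%) they were 4. With no floor they were 11 (6.53%), and at 1.5-fold 10 (7.2%). In 11 ECS against single ECS, the 0 higher became 10 with no floor (6.14%), 1 over every probe set (0.872%) and 5 at 1.5-fold (4.39%). The 0 lower became 1 with median (0.959%), trimmed mean (0.738%) or quantile scaling (0.909%), 6 with no floor (6.34%) and 4 at 1.5-fold (4.31%). The HCN median moved from 0.10 to -0.24 in 10 ECS against sham with a floor of 50 (-0.23 with median scaling too) and from 0.14 to -0.23 in 11 ECS against single ECS with either, since Hcn3 then had no value. With no floor the higher calls were 4.26% to 10.6% of members and 5.15% to 6.14% of all genes over the 4 comparisons, and the lower calls 6.38% to 11.8% and 6.34% to 9.07%. Under the other settings at 2-fold, members lay between 0% and 5.41% and all genes between 0.106% and 3.04%. Of 156 class and list medians compared, 14 had the other sign. Of 1316 ratios of named genes compared, 135 had the other sign, 2 of them at least 0.3 from 0 as deposited on the log2 scale. With 4 alternatives added after seeing the data, 1 to 5 members were higher in both responses, 1.64% with the median over probe sets (6.21% of all genes) and 11.9% with a floor of 50 (8.92% of all genes), so the order of these shares turned. Lower calls there were 3 to 4 (4.92% to 9.52%; 5.27% to 9.51% of all genes). Over the course 2 to 5 were higher (4.17% to 8.2%; 3.13% to 5.11% of all genes) and 5 to 8 lower (9.84% to 19.0%; 4.07% to 6.67% of all genes). Kcnc4, Cacna1h, Cacna1g, Cacnb4, Cacng8, Kcnk2 and Scn1a were called under all 4. The limit of 48 units could not remove any of them, since each reaches it. The median over probe sets leaves the ratios of Cacna1g, Cacng8 and Kcnk2 as they were, since each has 1 probe set. All alternatives use the same arrays.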
